A study of Homo sapiens with 3 samples.

Results

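Cancer-testis and germline genes were examined in HCT116, a cell line from a human colorectal carcinoma, on 3 Affymetrix arrays. Of 41 genes listed by name, 33 had at least 1 probe set that the platform annotation assigns to that gene alone, which gave 45 of the 54613 probe sets on each array. No filter on expression was applied. Of the other 8 genes, MAGEA2, MAGEA3, CTAG1B, SSX2, SSX4, RHOXF2 and NXF2 were covered only by 17 probe sets annotated with several genes (1 of them shared with MAGEA6), and PAGE2 was not matched to a probe set. The 17 are given separately below.

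The cells had been infected with lentivirus carrying a scrambled hairpin (the control, 1 array), UHRF1 shRNA-2 (hairpin 2, 1 array) or UHRF1 shRNA-5 (hairpin 5, 1 array), and were kept under puromycin for 6 days. UHRF1 binds hemimethylated DNA and recruits the maintenance methyltransferase DNMT1. The transcript of UHRF1 read 8.54 in the control, 6.20 in hairpin 2 cells and 6.67 in hairpin 5 cells on the log2 scale. It was therefore lower on both depleted arrays. The labels do not say whether the cells were a clone or a pool, and each hairpin has a single array. Cells with different hairpins were infected separately. Whether any infection was repeated is not stated in the labels, and no repeat has its own array. Any limma p-value rests on the spread between 2 hairpin arrays, moderated by the spread over all probe sets. In that spread, hairpin, culture and technical differences cannot be told apart.

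Cancer-testis antigens are proteins made in male germ cells and placenta and silent in most somatic tissue, and tumours often express some of them. Many lie on the X chromosome in families of near-identical copies, such as MAGE, SSX and PAGE. Their promoters, and those of a set of autosomal genes for meiosis and for the piRNA pathway that silences transposons in germ cells, are known to be held silent by CpG methylation in somatic cells. Loss of methylation, for instance under DNA methyltransferase inhibitors, is known to switch some of them on.

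Promoter windows show how CpG is distributed over these genes. RefSeq (GRCh38.p14) gave 51 windows for 34 of the 41 genes, each running from 250 bases before to 50 bases after an annotated start, and the window richest in CpG was taken for each gene. The sequences below run 5′ to 3′ on the gene's strand with every CpG in capitals. They are shown for 2 genes that read far above the array median on every array (MAGEB2 and MAGEA6), for the 2 genes at least 2-fold higher with hairpin 2 (MAGEA4 and TKTL1), and for SYCP3, a gene of the meiotic chromosome axis whose probe sets stayed near background.

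MAGEB2, chrX:30215313-30215612 (+ strand): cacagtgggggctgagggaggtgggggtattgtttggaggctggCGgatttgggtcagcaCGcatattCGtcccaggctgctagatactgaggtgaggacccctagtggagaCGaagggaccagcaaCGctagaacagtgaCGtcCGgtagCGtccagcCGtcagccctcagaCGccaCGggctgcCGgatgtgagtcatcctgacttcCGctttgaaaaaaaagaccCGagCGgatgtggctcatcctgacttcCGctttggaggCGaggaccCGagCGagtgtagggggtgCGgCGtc
MAGEA6, chrX:152769640-152769939 (- strand): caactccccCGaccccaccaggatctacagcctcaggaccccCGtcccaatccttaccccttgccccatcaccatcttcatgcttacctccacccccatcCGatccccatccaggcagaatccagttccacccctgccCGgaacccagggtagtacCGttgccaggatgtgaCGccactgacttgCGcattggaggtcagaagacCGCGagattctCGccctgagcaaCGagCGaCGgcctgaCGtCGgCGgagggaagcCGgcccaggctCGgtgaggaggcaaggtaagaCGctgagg
MAGEA4, chrX:151916675-151916974 (+ strand): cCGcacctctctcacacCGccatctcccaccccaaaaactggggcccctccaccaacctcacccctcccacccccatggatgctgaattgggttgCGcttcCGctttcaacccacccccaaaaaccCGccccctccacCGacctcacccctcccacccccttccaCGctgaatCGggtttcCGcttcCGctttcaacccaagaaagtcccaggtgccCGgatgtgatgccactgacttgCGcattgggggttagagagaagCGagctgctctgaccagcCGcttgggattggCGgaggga
TKTL1, chrX:154295545-154295844 (+ strand): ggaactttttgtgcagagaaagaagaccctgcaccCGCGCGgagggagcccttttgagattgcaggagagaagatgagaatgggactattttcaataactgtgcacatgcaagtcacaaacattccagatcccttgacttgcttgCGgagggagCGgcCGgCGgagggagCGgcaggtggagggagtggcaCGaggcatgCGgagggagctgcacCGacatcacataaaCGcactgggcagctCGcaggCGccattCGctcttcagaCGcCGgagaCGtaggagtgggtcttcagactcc
SYCP3, chr12:101739413-101739712 (- strand): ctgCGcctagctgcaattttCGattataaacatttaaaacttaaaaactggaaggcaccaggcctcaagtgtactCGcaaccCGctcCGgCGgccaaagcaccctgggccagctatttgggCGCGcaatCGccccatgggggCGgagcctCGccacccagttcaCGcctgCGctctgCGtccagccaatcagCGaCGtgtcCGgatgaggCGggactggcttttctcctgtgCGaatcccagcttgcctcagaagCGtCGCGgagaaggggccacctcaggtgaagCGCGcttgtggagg

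The MAGEB2 window holds 21 CpG, MAGEA6 19, MAGEA4 15, TKTL1 18 and SYCP3 24. Over all 27305 genes with a window the median was 16.0, and over the 34 members 17.5. The 19 X-linked members ranged from 5 to 21 with a median of 13.0, while the 15 autosomal members ranged from 1 to 60 with a median of 24.0. SSX1 had the fewest on X, with 5. DDX4, an RNA helicase of germ cells, had 1 in its only window, which need not be at its main start. MAEL, a piRNA pathway protein, had 60, and 27 in its other window. The windows of MAGEA3 and MAGEA6 differed at 0 of 300 positions, so the MAGEA6 sequence printed above also stands for MAGEA3.

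Some motifs were searched on both strands in the same windows. TCCCGC, the core bound by E2F6, a repressor of germline genes, was found in 41.2% of member windows (14 of 34) and in 28.4% of all windows. By chromosome it was found in 9 of 15 autosomal members, among them SYCP1, SYCP3, SYCE1, STK31, MAEL and ASZ1, and in 5 of 19 on X. CACGTG, the E-box bound by MGA with MAX, was found in 6 of 34 members (17.6%, against 7.54% of all windows). CCGGAA, a core of ETS factor sites that was added after the data were seen, was found in 6 of 34 (17.6%, against 18.4%), and MAGEA3 and MAGEA6 each held 1. Motifs were counted independently, whether or not matches of different motifs overlapped, and a match describes letters only, not binding. Each motif holds a CpG, and median CpG differed between the groups (24.0 on autosomes, 13.0 on X and 16.0 over all genes). The shares were not adjusted for CpG content.

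Most of these genes read low. A probe set was taken as near background when it lay at or below the 25th percentile of its array on all 3 arrays, a level of 2.565 in the control, 2.542 in hairpin 2 cells and 2.594 in hairpin 5 cells. By this rule 13 of the 45 member probe sets (28.9%) were near background, against 17.1% of all probe sets. For 8 genes every probe set was: the piRNA factors ASZ1 and TDRD1, the RNA regulators DAZL and DDX43, the kinase gene STK31, the meiotic axis genes HORMAD1 and SYCP3, and BRDT, a bromodomain protein of spermatids. One probe set each of MOV10L1, SYCE1, SYCP1 and TEX11 also was, while their other probe sets were not. Of the 13, 12 belong to autosomal genes and 1 to a gene on X, TEX11. Against the array median, 29 of 45 (64.4%) lay at or below it on all arrays, where 44.5% of all probe sets did. A level near the median need not be expression: 50 probe sets of genes specific to other tissues (28 genes, such as the hormone genes INS and PRL) had a median of 3.001 in the control, 2.88 in hairpin 2 cells and 2.98 in hairpin 5 cells. These 50 ranged from 2.197 to 6.658 in the control, and 19 (38.0%) lay above the array median on every array. The highest in the control were probe sets of MBP (6.66), TNNI3 (6.13) and SFTPC (5.60). A level above the median, taken alone, therefore need not be expression of the named gene either.

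**Figure D1:**
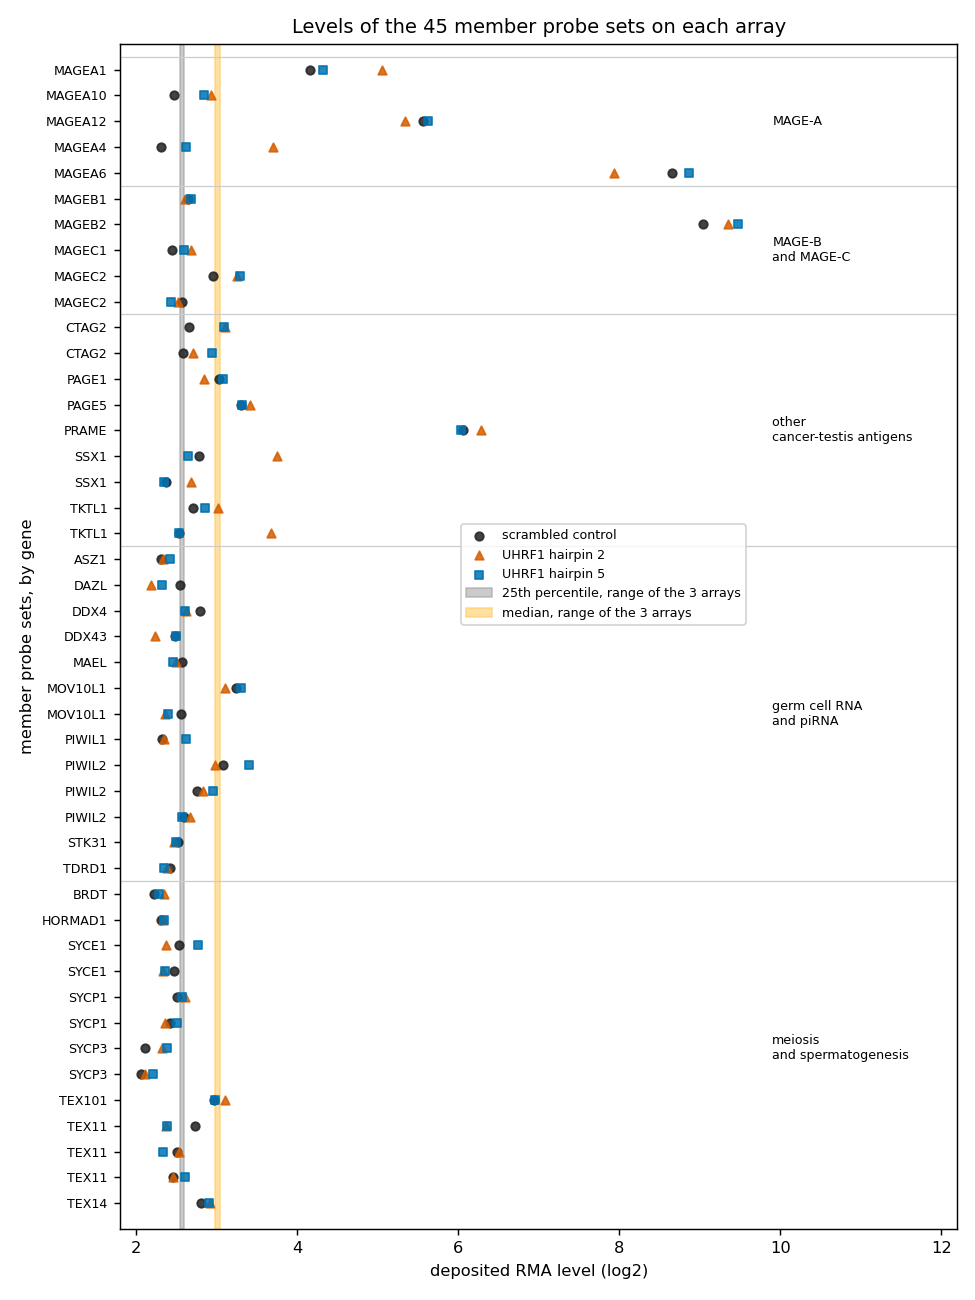
Deposited log2 level (x axis) of each of the 45 member probe sets (y axis, by gene and role) on the control array (circles), with hairpin 2 (triangles) and with hairpin 5 (squares); the bands are the 25th percentile and the median of the arrays. 5 probe sets, of MAGEA1, MAGEA6, MAGEA12, MAGEB2 and PRAME, stand above 4 on every array, and the germ cell and meiotic genes sit around the bands.

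No member probe set reached the size thresholds used here in the same direction on both depleted arrays. None of the 45 probe sets was at least 2-fold higher with both hairpins (0.0586% of all probe sets were) and none at least 2-fold lower (0.103%). At a smaller size of 0.5 on the log2 scale the members again gave 0 in each direction, where 0.692% of all probe sets were higher and 1.17% lower. In limma over all 54613 probe sets, 0 members and 0 probe sets in all (0.0%) had an adjusted p under 0.05, and no adjusted p was below 1.0. At an unadjusted threshold of 0.05, 1 member passed as higher (CTAG2) and 0 as lower, against 1.14% and 1.79% of all probe sets. With an intensity trend 5 members passed (3 higher and 2 lower), beside 1600 of all 54613 probe sets (613 higher and 987 lower). They were probe sets of CTAG2, DAZL, MAGEA10, SYCP3 and TEX11. Those of DAZL and SYCP3 lay near background on all arrays, and those of MAGEA10 and TEX11 below the array median on all arrays. With the filter at the 40th percentile 0 of the 18 members that remained passed, beside 881 of 32770 probe sets. The exact permutation test over the 3 ways to place the lone control cannot go below p = 0.333. In an array of bulk RNA, more transcript per cell and more cells with the transcript cannot be told apart.

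By sign alone, 20 of the 45 member probe sets (44.4%) were higher with both hairpins, where 31.7% of all probe sets were. Lower with both were 9 (20.0%, against 30.8%), and 16 were mixed. The control array enters both differences. The members' median difference from the control was 0.03 (hairpin 2) and 0.06 (hairpin 5), beside −0.01 and 0.01 over all probe sets.

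The hairpins differed in how far single genes stood from the control. With hairpin 2, 2 of 45 member probe sets were at least 2-fold higher, of MAGEA4 and TKTL1 (4.44%, against 0.558% of all probe sets), and 0 at least 2-fold lower (against 0.222%). With hairpin 5 there were 0 higher (against 0.135%) and 0 lower (against 0.683%), and the largest difference in either direction was 0.44. Both probe sets (214254_at and 214183_s_at) read at or below the 25th percentile on the control array, and the other probe set of TKTL1 (216370_s_at) above it. Among the 13679 probe sets that did so, 0.0877% were at least 2-fold higher with hairpin 2, and 2 of 22 members were. This restriction was chosen after the values were seen.

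**Figure D2:**
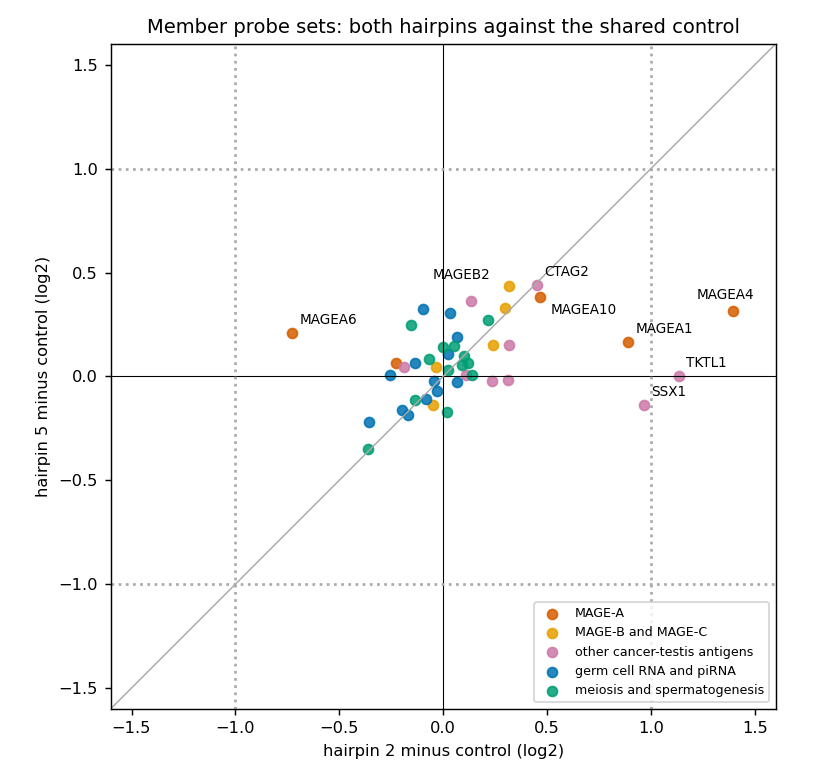
Difference from the control in log2 with hairpin 2 (x axis) and hairpin 5 (y axis) for the 45 member probe sets, coloured by role; dotted lines mark 2-fold and the diagonal marks equal values. MAGEA4 (1.40 and 0.31) and TKTL1 (1.14 and 0.00) lie past 2-fold with hairpin 2 only, and no point lies past 2-fold with hairpin 5; both axes share 1 control array.

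The MAGE-A antigens are X-linked MAGE family proteins that partner with ubiquitin ligases. Of their 5 probe sets, 3 were higher with both hairpins and 2 mixed, with medians of 0.47 for hairpin 2 and 0.21 for hairpin 5. MAGEA4 (214254_at) read 2.31 in the control, 3.70 in hairpin 2 cells and 2.62 in hairpin 5 cells. Only the hairpin 2 array stood above its median, and the mean difference was 0.85 ± 0.77 (SD, n = 2 hairpins). MAGEA1 (207325_x_at) read 4.16 in the control, 5.05 in hairpin 2 cells and 4.32 in hairpin 5 cells. It was above the median on every array and higher with both hairpins, by 0.89 and 0.17. MAGEA10 (210295_at) read 2.47, 2.93 and 2.85 in the same order, so both depleted arrays were above the control and all 3 below their medians.

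MAGEA6 and MAGEA12 went the other way with hairpin 2. MAGEA6 (214612_x_at) read 8.65 in the control, 7.93 in hairpin 2 cells and 8.86 in hairpin 5 cells. Hairpin 2 was the low array, and the differences of −0.73 and 0.21 gave a mean of −0.26 ± 0.66 (SD, n = 2 hairpins). MAGEA12 (210467_x_at) read 5.56, 5.33 and 5.63, again lowest with hairpin 2. The 3 shared MAGE-A probe sets had the same order of arrays. That annotated with MAGEA3 and MAGEA6 read 9.12 in the control, 8.38 in hairpin 2 cells and 9.32 in hairpin 5 cells. Those annotated with MAGEA2 and MAGEA2B read 7.89, 7.43 and 8.44, and 8.45, 7.96 and 8.55. These probe sets belong to close copies and may measure partly the same transcripts, so they are not separate observations.

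**Figure D3:**
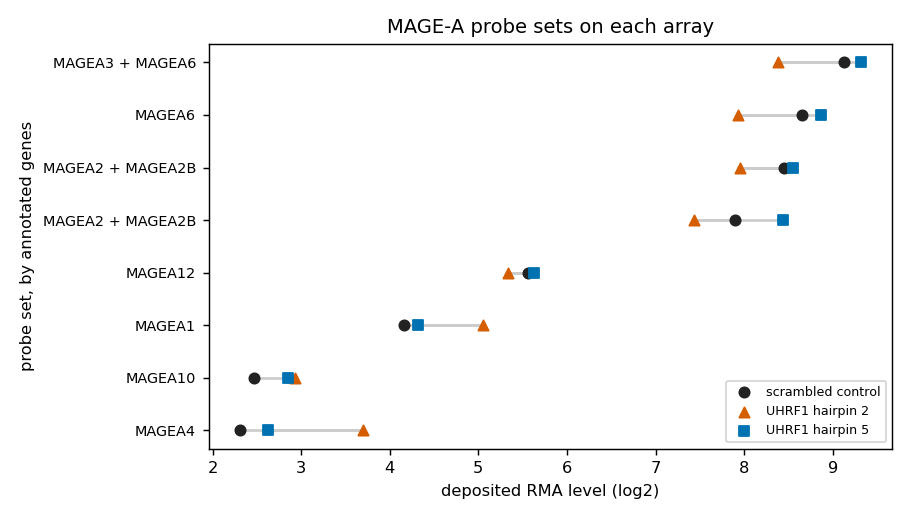
Deposited log2 level (x axis) of the MAGE-A probe sets assigned to 1 gene (5) or to several genes (3), 1 per line (y axis), on the control array (circles), with hairpin 2 (triangles) and with hairpin 5 (squares). MAGEA1, MAGEA4 and MAGEA10 are highest with hairpin 2, and the other 5 probe sets are lowest with it; levels of different probe sets are not comparable with each other.

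The MAGE-B and MAGE-C genes lie elsewhere on X. Of their 5 probe sets, 3 were higher with both hairpins, 1 lower and 1 mixed. MAGEB2 (206218_at) read 9.04 in the control, 9.35 in hairpin 2 cells and 9.47 in hairpin 5 cells. It was above the median on every array and higher with both hairpins, by a mean of 0.38 ± 0.08 (SD, n = 2 hairpins), which limma did not call (adjusted p = 1.0). MAGEC2 (220062_s_at) read 2.95, 3.25 and 3.28, just below the array median on the control and just above it with both hairpins. Its other probe set (215932_at) read 2.57, 2.52 and 2.43 and so differed in the other direction. MAGEC1 (206609_at) differed by 0.24 and 0.15 and MAGEB1 (207534_at) by −0.03 and 0.04, all at levels below the medians.

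Among the other cancer-testis antigens, 4 of 9 probe sets were higher with both hairpins, 0 lower and 5 mixed, with median differences of 0.31 and 0.01. CTAG2, also known as LAGE-1, is a relative of the tumour antigen NY-ESO-1. Its probe set 215733_x_at read 2.66 in the control, 3.11 in hairpin 2 cells and 3.10 in hairpin 5 cells. The control was the low array, and the mean difference was 0.44 ± 0.01 (SD, n = 2 hairpins). It was the member with the lowest unadjusted p in limma, which did not call it (adjusted p = 1.0). Its other probe set, 207337_at, read 2.58, 2.71 and 2.94, in the same direction but below the median on every array.

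TKTL1, a transketolase-like protein of the pentose phosphate pathway, had 2 probe sets that differed in size. Probe set 214183_s_at read 2.53 in the control, 3.67 in hairpin 2 cells and 2.53 in hairpin 5 cells. Hairpin 2 stood alone, at 2.20-fold over the control, while hairpin 5 was level with it. Probe set 216370_s_at read 2.70, 3.01 and 2.85. SSX1, a transcriptional repressor fused to SS18 in synovial sarcoma, showed a like pattern: 206626_x_at read 2.78, 3.75 and 2.64, and 206627_s_at read 2.37, 2.68 and 2.35. Hairpin 2 was the high array for each of these 4 probe sets.

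PRAME, a substrate receptor of a ubiquitin ligase and an antigen of melanoma, read 6.05 in the control, 6.29 in hairpin 2 cells and 6.03 in hairpin 5 cells. It was above the median on every array and the arrays lay within 0.26 of each other. The PAGE genes encode small X-linked antigens. PAGE1 read 3.03, 2.84 and 3.08, just above the array median on the control and with hairpin 5 and below it with hairpin 2. PAGE5 read 3.30, 3.41 and 3.31, above the array median on every array. The 14 shared probe sets outside MAGE-A, for CTAG1B, SSX2, SSX4, NXF2 and RHOXF2 with their copies, read between 2.42 and 3.60 on the 3 arrays, and 0 of all 17 shared probe sets differed by at least 0.5 in the same direction under both hairpins.

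Genes of germ cell RNA control and the piRNA pathway showed no common direction. Of 13 probe sets of 10 genes, 3 were higher with both hairpins, 6 lower and 4 mixed, with median differences of −0.08 and −0.02. All differences lay between −0.36 and 0.07 with hairpin 2 and between −0.22 and 0.32 with hairpin 5. DAZL, an RNA binding protein that promotes translation in germ cells, read 2.54 in the control, 2.18 in hairpin 2 cells and 2.32 in hairpin 5 cells, near background on each. DDX4, a marker of the germ line, read 2.79, 2.62 and 2.60. The helicase MOV10L1 and the PIWI protein PIWIL2 had 1 probe set each above the array median on every array. MOV10L1 (239257_at) read 3.24, 3.10 and 3.30 and PIWIL2 (220686_s_at) 3.08, 2.98 and 3.40, whereas the other probe sets of both genes lay at or below 2.95.

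Meiotic and spermatogenic genes were represented by 13 probe sets of 8 genes. Of these, 7 were higher with both hairpins, 2 lower and 4 mixed, with median differences of 0.03 and 0.06. SYCP3 read 2.11, 2.32 and 2.38 with probe set 1553599_a_at and 2.06, 2.11 and 2.20 with 241861_at. Both stayed below the 25th percentile on every array. SYCP1, the transverse filament of the synaptonemal complex, read between 2.35 and 2.60 over its 2 probe sets and all arrays. TEX101, a sperm membrane glycoprotein, was the 1 member of the group to pass the array median, on the hairpin 2 array (2.97, 3.11 and 2.97). TEX11, an X-linked meiosis gene, had the lowest values of the group against the control, by −0.36 and −0.35 with 1 of its 3 probe sets (233514_x_at), from 2.73 on the control array.

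By chromosome, the X-linked members had the higher medians and the wider ranges. The 21 probe sets of the 15 X-linked genes had median differences of 0.24 with hairpin 2 and 0.14 with hairpin 5, and 10 were higher with both, 2 lower and 9 mixed. The 24 probe sets of the 18 autosomal genes had medians of −0.00 and 0.04, and 10 were higher with both, 7 lower and 7 mixed. With hairpin 2 the X-linked probe sets ranged from −0.73 to 1.40 and the autosomal from −0.36 to 0.23. With hairpin 5 they ranged from −0.35 to 0.44 and from −0.22 to 0.32. The autosomal genes also held 12 of the 13 probe sets near background. The chromosomes were set against each other after the values were seen, with no test, and levels differ between these groups.

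**Figure D4:**
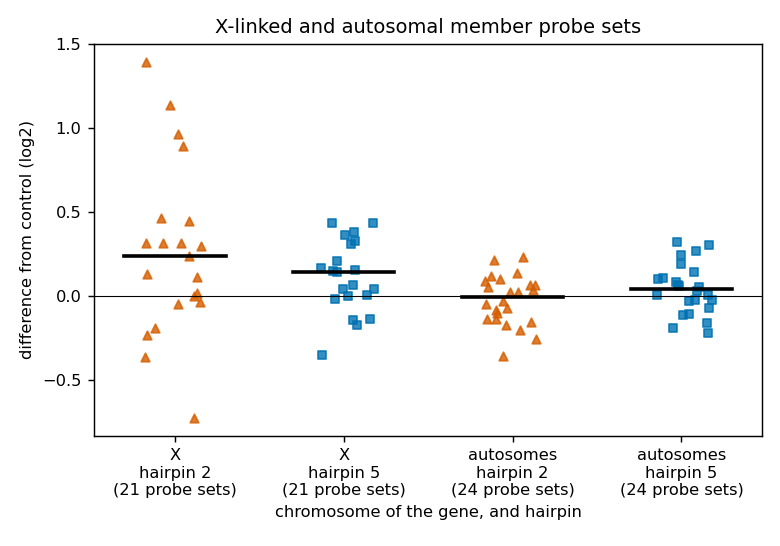
Difference from the control in log2 (y axis) of the 21 X-linked and 24 autosomal member probe sets, for hairpin 2 (triangles) and hairpin 5 (squares); points are probe sets, spread sideways for visibility, and bars are medians. The X-linked medians are 0.24 and 0.14 and the autosomal −0.00 and 0.04, with the widest spread for X-linked probe sets with hairpin 2.

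Hairpin 2 also differed from hairpin 5 outside these genes. IFIT1, an interferon-induced gene, read 3.22 in the control, 10.01 in hairpin 2 cells and 5.41 in hairpin 5 cells. Its part in the values of MAGEA4, TKTL1, SSX1, MAGEA1 and MAGEA6 was not tested.

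A second list of 105 cancer-testis and germline genes, 87 of them with 126 probe sets assigned to 1 gene, had medians near 0 as well. Of the 126, 41 were higher with both hairpins (32.5%, against 31.7% of all probe sets), 31 lower (24.6%, against 30.8%) and 54 mixed, with median differences of 0.00 and 0.04. Near background were 30 (23.8%, against 17.1%). None of the 126 was at least 0.5 higher with both hairpins (against 0.692% of all probe sets). At least 0.5 lower was 1 of 126 (against 1.17%), a probe set of ROPN1, a sperm flagellum protein (224191_x_at, 3.42, 2.75 and 2.85). The other probe sets of ROPN1 stood slightly above the control with both hairpins, 231535_x_at by 0.04 and 0.19 and 233203_at by 0.16 and 0.17. TEX19, a germ cell gene that restrains retrotransposons, read 3.75 in the control, 5.21 in hairpin 2 cells and 4.0 in hairpin 5 cells. It was the 1 of 126 probe sets at least 2-fold higher with hairpin 2 (against 0.558% of all probe sets). PRDM1, a transcription factor of germ cell specification, read 3.64, 4.03 and 4.10 with probe set 217192_s_at, whereas 228964_at (−0.07 and −0.13 from the control) and 235668_at (−0.13 and 0.00) were not higher. TFAP2C, another such factor, read 4.30, 3.42 and 3.89 with 205286_at. MYBL1, a factor of male meiosis, read 2.55, 2.82 and 3.18 with probe set 237014_at. Its probe set 231268_at read 5.22, 5.36 and 5.70, in the same direction, and 213906_at read 5.24, 5.60 and 4.94, higher with hairpin 2 and lower with hairpin 5. The sperm protamine PRM2 read 2.88, 3.15 and 3.18. The other probe sets of ROPN1, PRDM1 and MYBL1 were named after their values were seen. GTSF1, a piRNA pathway protein, was high on every array (10.49, 10.51 and 10.55) and was named after its values were seen.

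A list of known silencing factors of germline genes had medians near 0. It also held TET1, TET2 and TET3, which act in DNA demethylation rather than silencing. Of its 62 probe sets of 27 genes, 24 were higher with both hairpins (38.7%, against 31.7% of all probe sets). Lower with both were 13 (21.0%, against 30.8%), and 25 were mixed. The median differences were 0.05 and 0.01. Beside UHRF1, RYBP, a subunit of variant Polycomb complexes, was the 1 gene whose brightest probe set was at least 0.5 from the control with both hairpins (201844_s_at, 6.797, 7.523 and 7.728). Its probe set 201846_s_at read 4.35, 5.20 and 5.04, in the same direction, but 201845_s_at read 5.80, 5.94 and 5.46 and 242719_at 2.397, 2.398 and 2.305, so the 4 probe sets of the gene did not go one way. MAX, the partner of MGA, had a dimmer probe set past 0.5 with both hairpins (210734_x_at, 4.59, 5.45 and 5.14), while its brightest was not (209332_s_at, 7.17, 7.20 and 6.79). EHMT1 was lower with both at its brightest probe set (225461_at, 6.27, 5.77 and 5.37), just short of 0.5 with hairpin 2. Its dimmer 219339_s_at (3.13, 3.38 and 3.55) and 222873_s_at (2.58, 2.61 and 2.71) were higher with both. EHMT1 and these other probe sets of RYBP and MAX were named after their values were seen. DNMT1 read 8.81, 8.94 and 8.50, DNMT3A 4.003, 4.005 and 3.893, DNMT3B 6.36, 6.47 and 6.15, and UHRF2 5.63, 5.56 and 4.71 at their brightest probe sets. E2F6 read 6.45, 6.69 and 6.42, and MGA 5.36, 5.92 and 5.58, both named after their values were seen. No probe set of these lists had an adjusted p under 0.05 in limma.

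Of the epithelial markers, EPCAM read 10.23, 10.13 and 9.93 and KRT18 12.26, 12.15 and 12.48, while the intestinal markers LGALS4 (2.73, 2.59 and 2.45) and CDH17 (2.68, 2.50 and 2.48) lay below the array median, and the 4 probe sets of VIL1 read at most 3.13. CEACAM5 read 2.35, 2.46 and 2.35 with probe set 201884_at and 3.98, 3.54 and 3.97 with 217291_at. Other intestinal markers, CDX1 (4.66, 4.53 and 4.60) and GPA33 (3.21, 3.27 and 3.38), lay above the array median on every array. CDX2 did so with 206387_at (4.46, 4.81 and 4.89) but not with 231606_at (2.842, 2.699 and 2.575). In all, 11 of 19 epithelial probe sets (57.9%) were above the array median on every array, against 44.8% of all probe sets. Of 21 leukocyte probe sets 3 were (14.3%), and of 38 fibroblast and endothelial probe sets 9 (23.7%), with COL1A1 at up to 6.39. These markers were named after their values were seen. Of the 7 probe sets of germ and Sertoli cell markers 3 were above the median on every array, 2 of them for SOX9, which intestinal epithelium also expresses, and 1 for NANOS3.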

How the data were processed

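RNA of HCT116 cells was measured on 3 single-colour arrays. The authors deposited log2 values from RMA, run in Affymetrix Expression Console as the submitters' processing notes list it, with no versions or settings. The log base was read from the range of the values, the centring is not stated, and there are no detection calls. Array probe sets were named through the platform's gene annotation: of 54613, 41091 had 1 gene, 1801 several and 11721 none. RefSeq identifiers (GRCh38.p14) gave the same symbol for all member probe sets.

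All 54613 probe sets entered 1 fit of limma (version 3.58.1, under R 4.3.3; lmFit, then eBayes), with two-sided p-values adjusted by Benjamini and Hochberg's method: 2 hairpin arrays as replicates against 1 control, with 1 residual degree of freedom per probe set. The control is taken to vary as the hairpin arrays do. The fit was tested on simulated data. Counts were also taken at least 2-fold and at least 0.5 (log2) from the control with both hairpins. Tables were made with Python 3.11.15 and pandas 2.3.3.

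Values on each array are given for member probe sets above the array median on any array, the 5 with the largest difference between hairpins, DNA methylation genes, the brightest probe set of each silencing factor where it is at least 0.5 from the control with both hairpins, and the 6 probe sets of the second list with the largest smaller difference. Members and lists were chosen with earlier results of these data known. Alternatives were other scaling, 1 value per gene, other probe set choices, other background levels, other limma priors, a filter at the 40th percentile, an adjusted p of 0.1, and each hairpin alone. A comparison of family proteins was not run. The number of arrays limits the precision.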

Additional observations from a re-analysis of the deposited data

How the results depend on the processing

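Counts of member probe sets at least 2-fold or 0.5 from the control with both hairpins stayed 0 under median centring, cyclic loess, 1 value per gene, no _x_at or _s_at probe sets, only probe sets above an array median, and with the shared probe sets added (the last chosen after seeing the data). With 1 hairpin alone they ranged from 0 to 2 (2-fold higher), 0 to 0 (2-fold lower), 0 to 4 (0.5 higher) and 0 to 1 (0.5 lower), the upper values from hairpin 2. limma called 0 members and 0 probe sets under every prior, filter, scaling and threshold tried; the lowest adjusted p with an intensity trend was 0.456. The 20 probe sets higher with both became 13 without _x_at and _s_at probe sets and 8 among those above a median, and 26 to 30 with 1 hairpin. The 9 lower with both became 5 with the brightest probe set per gene, 3 without _x_at and _s_at and 0 above a median, and 14 to 18 with 1 hairpin. Fewer probe sets or genes enter these alternatives, and 1 hairpin needs no second array. The median difference (mean of hairpins) was 0.07, 0.17 among probe sets above a median, and 0.034 to 0.063 with 1 hairpin. The 13 near background were 24 at the 40th percentile, 29 at the 50th, 7 without _x_at and _s_at, 8 as whole genes, and 16 to 17 with 1 array left out. Of 16 named member probe sets, the mean difference changed sign in 0 cases under median centring or cyclic loess, but 4 (PRAME, PAGE1, PAGE5 and TEX101) had a hairpin 5 difference near 0 that changed sign. With 1 hairpin alone, 7 had the other sign than the mean (PRAME, SSX1, PAGE1, MAGEA6, MAGEA12 and MOV10L1 with hairpin 5, PIWIL2 with hairpin 2). No paired analysis was possible because the control has 1 array. Probe sets near background give no firm fold, and absence of a transcript cannot be read from them.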
